A study of Homo sapiens with 2 samples.

Results

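The Rb peaks of chromosome 6 with a summit from 29.5 to 44.5 Mb (hg19) are described here. This stretch of 15.0 Mb holds the major histocompatibility complex (MHC) and other gene-dense sequence of band 6p21. Below, 6p21 stands for the stretch within these limits and not for the band itself. Members were chosen by position alone. They numbered 270 of 21994 peaks in LNCaP and 145 of 9423 peaks in VCaP. The MHC part, up to 33.4 Mb, held 99 of them in LNCaP and 56 in VCaP, and the other 11.1 Mb of the region held 171 in LNCaP and 89 in VCaP. LNCaP and VCaP are established prostate cancer cell lines that express the androgen receptor, and each is represented by 1 chromatin immunoprecipitation sequencing (ChIP-seq) library made with a mouse monoclonal antibody against Rb. Both lines, at passage 10 to 15, had spent 3 days in charcoal-treated serum at 5% and then 4 h with the androgen dihydrotestosterone (DHT) at 10 nM, so that no group without androgen enters any comparison. The peaks were called from 3671482 tags in LNCaP and 8691938 in VCaP, so that LNCaP had the longer list at the lower depth. With 1 library per line there is no replicate spread, and no test between the lines was made. The intervals given are exact 95% binomial intervals, which cover counting error only.

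Rb, the retinoblastoma tumour suppressor, binds no specific DNA sequence itself. It is brought to promoters mainly by E2F transcription factors and restrains genes needed for DNA replication and division until cyclin-dependent kinases phosphorylate it. The MHC is known for its class I genes, which present peptides on nearly all nucleated cells, and its class II genes, which do so mainly on antigen-presenting cells. Between them lies the class III segment with complement, cytokine and many housekeeping genes. The rest of 6p21 is known to carry CDKN1A, which encodes the kinase inhibitor p21, and CCND3, which encodes cyclin D3, a partner of the kinases that phosphorylate Rb. Peaks are given by their hg19 positions. Gene starts were not assigned to them, because the gene table used here is on another build, and no sequence of the peaks was used.

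The 6p21 region was among the stretches of the genome densest in Rb peaks in both lines. LNCaP had 18.0 peaks per Mb there and VCaP 9.67, against 7.87 and 3.37 per Mb of effective genome over the whole lists of LNCaP and VCaP. The genome was also laid out in 190 other tiles of the same length. Of these, 3 held more LNCaP peaks than the region and 4 held more VCaP peaks. The median tile held 92 LNCaP peaks (quartiles 62.8 and 128) and 34 VCaP peaks (22 and 53.8), so that the region had 2.93 times the median in LNCaP and 4.26 times in VCaP. The tiles above it in at least 1 line were on chromosome 11 at 60 to 75 Mb, chromosome 17 at 30 to 45 Mb, and chromosome 19 at 0 to 15 Mb and 30 to 45 Mb.

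**Figure D1:**
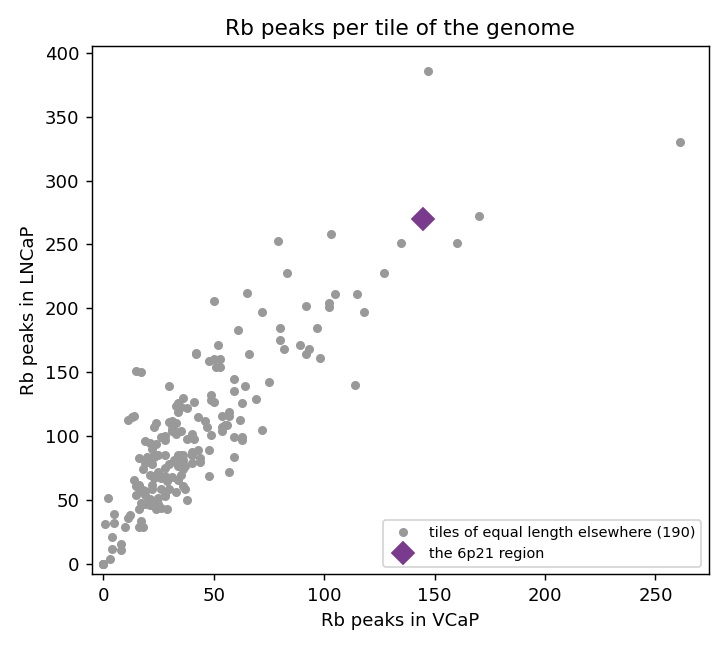
Number of Rb peaks in LNCaP (vertical axis) and VCaP (horizontal axis) in the 6p21 region (diamond) and in 190 other tiles of 15 Mb (grey points), 1 library per line. The region, with 270 LNCaP and 145 VCaP peaks, lies near the upper right end, above the bulk of the tiles.

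LNCaP had more Rb peaks than VCaP in 6p21, by a smaller factor than over the lists as a whole. The ratio of LNCaP to VCaP peak numbers was 1.86 in the region (1.52 to 2.29), against 2.34 over all peaks. Of 186 tiles with any VCaP peak, 154 had a higher ratio, and the median of the 186 was 2.52. Among the tiles with more peaks than the region in at least 1 line, it was 1.26 on chromosome 11 and 1.60 on chromosome 17. On chromosome 19 it was 2.63 at 0 to 15 Mb and 1.57 at 30 to 45 Mb. A low ratio was therefore not particular to 6p21. On chromosome 6 outside the region the ratio was 2.73 (2.40 to 3.11), from 890 LNCaP and 326 VCaP peaks. These include the tile at 0 to 15 Mb, with 113 LNCaP and 11 VCaP peaks, a ratio of 10.3. The region held 23.3% of the chromosome 6 peaks of LNCaP and 30.8% of those of VCaP. The ratio was 1.77 in the MHC (1.26 to 2.50) and 1.92 in the rest of the region (1.48 to 2.51), intervals that overlap widely. With the LNCaP list cut to its peaks of highest fold enrichment, as many as in VCaP, the ratio was 0.828.

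The MHC carried more Rb peaks per Mb than the rest of 6p21, in each line by a similar factor. In LNCaP there were 25.4 peaks per Mb in the MHC and 15.4 in the rest, a ratio of 1.65 (1.27 to 2.12). In VCaP the densities were 14.4 in the MHC and 8.02 in the rest, a ratio of 1.79 (1.26 to 2.53). Median spacing between neighbouring summits was accordingly shorter in the MHC, at 22.7 kb in LNCaP and 36.8 kb in VCaP, against 39.2 kb in LNCaP and 73.6 kb in VCaP for the rest.

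Within the MHC the peaks of both lines were densest in the same megabase. The megabase from 31.4 to 32.4 Mb held 33 LNCaP and 19 VCaP peaks, the highest of the 15 bins in both lines. From 30.4 to 31.4 Mb there were 27 in LNCaP and 12 in VCaP, and from 32.4 to 33.4 Mb 21 and 16. The 0.9 Mb at the start of the MHC held 18 LNCaP and 9 VCaP peaks. The most crowded 100 kb of the MHC in LNCaP ran from the summit at 30615099 to that at 30710568, with 9 peaks, 4 of them overlapped in VCaP. In VCaP it ran from 31774646 to 31870115, with 6 peaks, 5 of them overlapped in LNCaP.

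Some stretches of the MHC had no Rb peak in either line. The longest ran from 32383452 to 32659908, 276 kb between summits, and the LNCaP list had no summit over 425 kb from 32381340 to 32806560. Another interval, of 223 kb, lay between 30882054 and 31105316, and a further one, of 171 kb, between 32958188 and 33129374. These gaps lay on both sides of the crowded megabase. In VCaP the longest gap was elsewhere, over 384 kb from 31126164 to 31509721, where LNCaP had peaks.

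Outside the MHC the peaks fell into a dense flank on either side of a sparse middle. From 33.4 to 37.4 Mb each megabase held 17 to 20 LNCaP peaks, and 18, 9, 6 and 13 VCaP peaks in order of position. The 4 bins from 37.4 to 41.4 Mb held 8, 8, 4 and 8 peaks in LNCaP and 1, 5, 1 and 2 in VCaP, the lowest numbers of the region in each line. Density then rose again along the chromosome, to 25 LNCaP and 10 VCaP peaks from 42.4 to 43.4 Mb and to 24.5 and 13.6 peaks per Mb from 43.4 to 44.5 Mb. The sparse middle contained the longest peak-free intervals of both lines, 470 kb in LNCaP from 38138216 to 38607980 and 820 kb in VCaP from 37787076 to 38607552. The most crowded 100 kb of the rest was at the far end in both lines, with 8 LNCaP summits from 44191337 to 44281048 and 7 VCaP summits from 44205741 to 44281072. Over the 15 bins the densities of the lines went together (Spearman's rho 0.77, Pearson's r 0.81), a description of bins that share the same gene and sequence content.

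A single megabase stood out by having about as many peaks in LNCaP as in VCaP. From 33.4 to 34.4 Mb, just beyond the MHC, there were 17 LNCaP and 18 VCaP peaks, a ratio of 0.944, and no other bin had a ratio below 1.31. The adjoining bin from 32.4 to 33.4 Mb had that ratio of 1.31. The highest ratio was that of 8 LNCaP peaks against 1 VCaP peak at 37.4 to 38.4 Mb. At such counts the ratio of a bin is imprecise, and the bin was singled out after its values were seen.

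**Figure D2:**
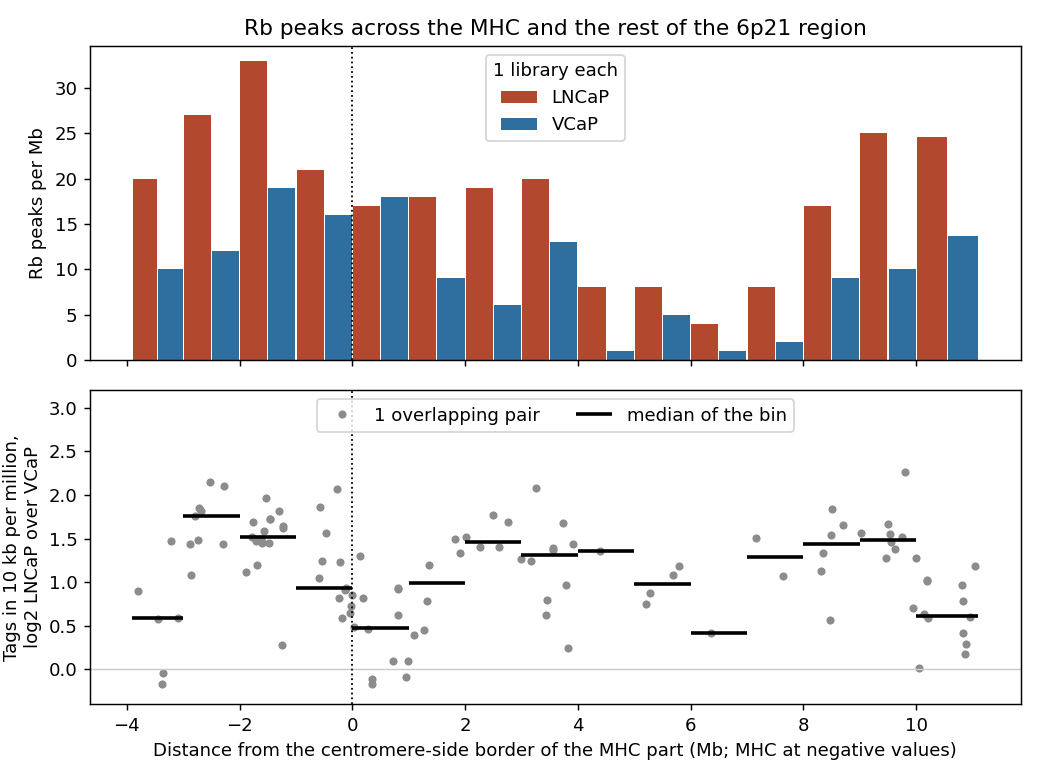
Top, Rb peaks per Mb in LNCaP (left bar of each pair) and VCaP (right bar) in 15 bins along the region, measured from the border of the MHC at 0. Bottom, log2 ratio of LNCaP over VCaP of the tags in the 10 kb around each overlapping pair of peaks, each scaled to 1000000 tags of its library, with the median of each bin as a black line; peak density dips in both lines 4 to 8 Mb beyond the border, and the tag ratio is lowest just beyond the border and at both ends among bins with at least 6 pairs.

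The signal around the peaks also differed between the lines along 6p21. The tags in the 10 kb around each peak were computed back from the pileup and the fold enrichment, and at overlapping pairs they were compared after scaling each library to 1000000 tags. Their median log2 ratio of LNCaP over VCaP was 1.23 in the region (quartiles 0.72 and 1.52, 115 pairs), against 1.24 over all 6688 pairs of the lists. It was 1.45 in the MHC (interval of the median 1.12 to 1.56, 45 pairs) and 1.08 in the rest (0.82 to 1.28, 70 pairs). In the bin from 33.4 to 34.4 Mb the median was 0.48 over 12 pairs, in the first bin of the MHC 0.58 over 6 pairs, and in the last bin of the region 0.62 over 12 pairs. In the other bins with at least 6 pairs it ran from 0.94 to 1.76, highest from 30.4 to 31.4 Mb. The bin with about as many LNCaP as VCaP peaks also had the lowest tag ratio among bins with at least 6 pairs. The first and last bins of the region, next lowest, had 2 and 1.8 times as many LNCaP as VCaP peaks. Peak and tag ratios therefore did not always go together. The bin from 39.4 to 40.4 Mb had a tag ratio of 0.42, from 1 pair. The windows hold the tags of the peaks themselves, and the part of the surrounding signal in the peak numbers was not tested.

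The share of Rb peaks with a partner in the other line was higher in 6p21 than in the lists as a whole. Of the 270 LNCaP peaks, 112 were overlapped by at least 1 bp by a VCaP peak, or 41.5% (35.5 to 47.6), against 30.2% of the whole LNCaP list. In the other direction, 115 of the 145 VCaP peaks had an LNCaP partner, 79.3% (71.8 to 85.6), against 71.2% of the whole VCaP list. On chromosome 6 outside the region the shares were 21.7% in LNCaP and 59.8% in VCaP. Inside it they differed little between the MHC, with 43.4% in LNCaP (33.5 to 53.8) and 80.4% in VCaP (67.6 to 89.8), and the rest, with 40.4% in LNCaP (32.9 to 48.1) and 78.7% in VCaP (68.7 to 86.6). No test of these differences was made, and overlapping intervals do not show that the parts were alike. Both shares depend on the lists. The LNCaP list was also cut to its peaks of highest fold enrichment, as many as in VCaP. With that list 65.0% of the LNCaP and 55.9% of the VCaP peaks of the region were overlapped. The shares of the whole lists were not computed under that setting, so the comparison with them holds for the lists as reported.

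Merged over both lines, the peaks made 299 sites. Of these, 111 held peaks of both lines, 158 an LNCaP peak alone and 30 a VCaP peak alone. The MHC had 43 sites of both lines, 56 of LNCaP alone and 11 of VCaP alone. The rest had 68 of both, 102 of LNCaP alone and 19 of VCaP alone. Some sites of 1 line lay close to a peak of the other: 16 of the 158 LNCaP peaks without overlap had a VCaP summit within 2 kb, and so did 7 of the 30 VCaP peaks with respect to LNCaP. The median distance to the nearest summit of the other line was 15.1 kb for the LNCaP and 5.00 kb for the VCaP peaks without overlap in the MHC, and 39.0 kb and 12.5 kb in the rest. These site counts and distances were not computed over the whole lists, so they describe the region alone. Neighbouring summits of both lines together were 12.2 kb apart in the median in the region and 28.3 kb over the whole lists.

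Peaks of 6p21 were about as enriched as those of the whole list in LNCaP and slightly more enriched in VCaP. Fold enrichment is the authors' ratio of the tags piled up at the summit to the local background of the same library. In LNCaP its median was 6.07, with quartiles of 5.15 and 7.47. In VCaP it was 5.85, with quartiles of 5.12 and 6.64, against medians of 6.00 and 5.51 over the whole lists of LNCaP and VCaP. In the MHC the medians were 6.42 in LNCaP (5.16 and 7.71) and 5.96 in VCaP (5.03 and 6.59), and in the rest 6.01 in LNCaP (5.13 and 7.27) and 5.77 in VCaP (5.17 and 6.64). A fold enrichment of at least 10 was reached by 21 LNCaP peaks of the region, 7.78% (4.88 to 11.6), against 8.02% of the list. In VCaP 6 peaks reached it, 4.14% (1.53 to 8.79), against 3.32% of the list. Both shares lay near those of the whole lists.

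The median pileup at the summit was 14 tags in LNCaP and 15 in VCaP, or 3.81 in LNCaP and 1.73 in VCaP when each library is scaled to 1000000 tags. It ranged from 5 to 74 tags in LNCaP and from 7 to 50 in VCaP. Peaks were 407 bp long in the median in LNCaP (287 and 564) and 339 bp in VCaP (270 and 442). The peaks covered 122 kb in LNCaP and 53.1 kb in VCaP.

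As over the lists as a whole, LNCaP peaks shared with VCaP were higher and broader in the median than the others, and the difference was smaller in VCaP. Overlapped LNCaP peaks of the MHC had a median fold enrichment of 7.57 and the others 5.57, and in the rest of the region the medians were 7.24 and 5.58. For VCaP they were 6.02 and 5.52 in the MHC and 5.86 and 5.67 in the rest, again for overlapped and other peaks. The median length of overlapped and other peaks of the region was 538.5 and 313.5 bp in LNCaP and 362 and 269 bp in VCaP. Over the whole lists, overlapped and other peaks had a median fold enrichment of 7.68 and 5.51 in LNCaP and 5.71 and 5.14 in VCaP, and a median length of 580 and 325 bp in LNCaP and 344 and 265 bp in VCaP. When the region's peaks were split in 3 classes of nearly equal size by fold enrichment, 16.7% of the lowest class of LNCaP peaks were overlapped (9.64 to 26.0), 33.3% of the middle (23.7 to 44.1) and 74.4% of the highest (64.2 to 83.1). In VCaP the shares were 77.1%, 75% and 85.7% from the lowest to the highest class. Such classes were not formed over the whole lists, so these shares are not read as particular to the region. Of the 21 LNCaP peaks with at least 10-fold enrichment 19 were overlapped, against 1366 of 1761 over the whole list. All 6 such VCaP peaks were overlapped, against 283 of 312 over the whole list.

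**Figure D3:**
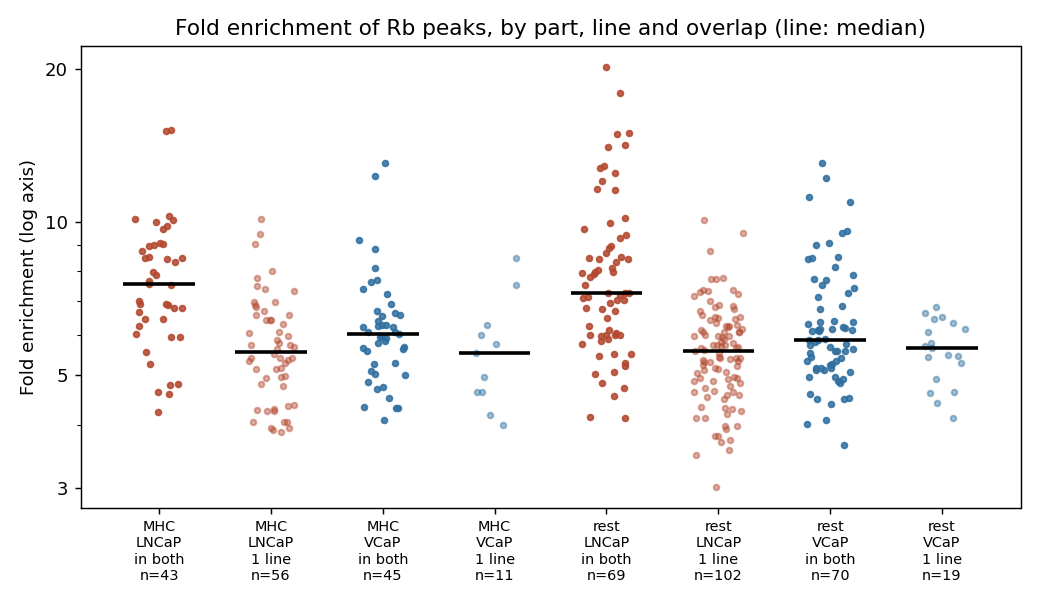
Fold enrichment (log axis) of each Rb peak of the region in the MHC and in the rest, for LNCaP and VCaP, split into peaks overlapped in the other line ("in both") and peaks found in 1 line, with the median as a black line. Peaks above 12 were all found in both lines, and the LNCaP peaks found in 1 line cluster between 4 and 8.

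The 2 highest sites of the MHC were the same in both lines. At 31125953–31126493 (LNCaP interval) the fold enrichment was 15.2 in LNCaP against 12.3 in VCaP, with 54 and 28 tags at the summit, and the summits were 27 bp apart. The site at 31632746–31633152 had 15.1 in LNCaP and 13.1 in VCaP, with 66 and 43 tags and summits 9 bp apart. They ranked 151 and 157 among 21955 LNCaP peaks and 132 and 99 among 9393 VCaP peaks, on chromosomes 1 to 22 and X. The next MHC peak was at 10.3 in LNCaP and 9.22 in VCaP, well below these 2 in each line.

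The next 3 LNCaP peaks of the MHC were nearly level. That at 32163366–32164407 reached a fold enrichment of 10.3 and, at 1042 bp, was the longest of the MHC in LNCaP. Those at 30294609–30295119 and 31774440–31774977 both had 10.1 with 26 tags. The peak at 31774440 was overlapped in VCaP, and the peak at 30294609 was not, with the nearest VCaP summit 18.2 kb away. In VCaP the next 3 were at 30312780–30313221 (9.22), 32098077–32098439 (8.85) and 32383310–32383613 (8.51). The last of these bordered the longest peak-free interval of the MHC and had no overlap in LNCaP, although an LNCaP summit lay 2.11 kb away.

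Among MHC sites called in both lines, 3 more had a good rank in each list. They were at 32097924–32098463, where fold enrichment was 10.1 in LNCaP against 8.85 in VCaP, at 30312717–30313265, with 10.03 and 9.22, and at 30685097–30685512, with 9.01 and 6.69 (LNCaP intervals). The site at 30685097 had 46 tags at the LNCaP summit and 23 at the VCaP summit, but also the fullest surroundings of these sites, with 175 tags per 10 kb in LNCaP and 115 in VCaP.

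The 2 highest LNCaP peaks of the region lay in the rest of 6p21, and in VCaP the highest peak of the rest, at 13.05, was just below the 13.1 of the MHC. At 44355303–44355841 fold enrichment reached 20.2 in LNCaP, rank 14 of the list, and 11.2 in VCaP, rank 202. At 36390977–36391440 it was 17.9 in LNCaP, rank 51, and 13.05 in VCaP. At 37137325–37137790 it was 15.0 in LNCaP and 12.2 in VCaP, ranks 168 and 137, with 74 tags at the LNCaP summit, the highest pileup of the region in that line, and 45 at the VCaP summit. These were the first 3 of the rest in both lines, in another order. None of the 115 pairs of the region was in the top 100 of both lists, against 38 of 6688 pairs over the whole lists, so such pairs were rare in both.

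Further pairs were ranked by the worse of their ranks in the lists. At 33679201–33679668 the fold enrichment was 14.1 in LNCaP and 9.59 in VCaP, with 51 and 50 tags at the summits, and the surroundings held 112 tags per 10 kb in LNCaP and 192 in VCaP. This site lies in the bin where the lines had nearly equal numbers of peaks. At 39082528–39083184, in the sparse middle, the values were 14.2 and 9.09, at 35419911–35420390 they were 14.9 and 8.50, with summits 1 bp apart, and at 35888717–35889108 they were 12.8 and 8.17 (LNCaP before VCaP throughout). At 38670653–38671115 they were 12.5 and 7.70, at 43603339–43603828 they were 9.44 and 8.56, and at 35995154–35995925 they were 9.29 and 6.84. Of the 115 pairs of the region, 7 had a rank of 500 or better in both lists, 2 of them in the MHC. Over the whole lists it was 217 of 6688 pairs.

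Of the other highest peaks of the rest, some LNCaP ones had a much lower partner in VCaP. The peak at 36842290–36842732 reached 12.9-fold enrichment in LNCaP against 5.53 in VCaP, and the peak at 35226804–35227757 reached 12.03 in LNCaP against 6.17 in VCaP, with summits 7 bp apart. Among the highest VCaP peaks, that at 34724885–34725285 had a partner of 7.90 in LNCaP and itself reached 10.97 in VCaP. The VCaP peak at 34494993–34495377 had a partner of 7.51 in LNCaP and was itself at 9.50, and for that at 34122419–34122987 the lines were nearly equal, at 8.97 in LNCaP and 9.03 in VCaP.

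At most overlapping pairs of the region, fold enrichment was higher in LNCaP, in a share near that of all pairs. Of the 115 pairs of the region, 88 had the higher value in LNCaP, 76.5% (67.7 to 83.9), against 80.8% of all pairs. The median log2 ratio of LNCaP over VCaP was 0.28 (interval of the median 0.19 to 0.43), a ratio of 1.22, against 0.40 or 1.32 over all pairs, a value inside the interval of the region. It was 0.22 in the MHC (0.15 to 0.38, 45 pairs) and 0.36 in the rest (0.15 to 0.47, 70 pairs). At least 2 times the fold enrichment in LNCaP was seen in 3 pairs, 2.61%, against 7.98% of all pairs. None of the 115 pairs had at least 2 times the fold enrichment in VCaP, against 0.179% of all pairs. Measured instead by the pileup with each library scaled to 1000000 tags, all 115 pairs were higher in LNCaP, with a median log2 ratio of 1.61. Over all pairs that median was 1.75 (quartiles 1.33 and 2.13), so the higher scaled pileup in LNCaP was not particular to the region. The share of all pairs higher in LNCaP by this measure was not computed.

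**Figure D4:**
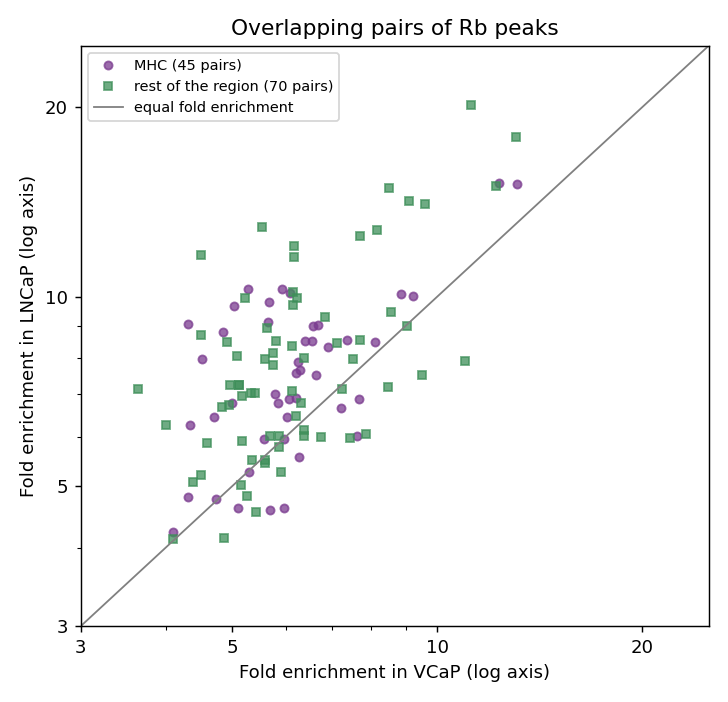
Fold enrichment in LNCaP (vertical) against VCaP (horizontal), both on log axes, at the 115 overlapping pairs of peaks of the region, with MHC pairs as circles, pairs of the rest as squares and the line of equal values. Most points, 88 of 115, lie above the line, and the 2 MHC pairs near 15 in LNCaP stand apart from the other circles.

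The 3 pairs with at least 2 times the fold enrichment in LNCaP were at 35656504–35656982, with 11.6 in LNCaP and 4.498 in VCaP, at 36842290–36842732, named above, and in the MHC at 30034715–30035259, with 9.05 and 4.31. Next in the MHC were 32163366–32164407, with 10.3 in LNCaP and 5.27 in VCaP, and 31105257–31105609, with 9.67 and 5.03. In the rest it was followed by 43597106–43597926, with 7.14 in LNCaP and 3.65 in VCaP. In 3 of these 6 pairs the summits lay far apart, by 408 bp at 30034715, 591 bp at 32163366 and 506 bp at 43597106. The LNCaP peaks at 32163366 and 43597106 each overlapped a second VCaP peak, with fold enrichments of 5.93 and 7.25 and summits 252 and 26 bp away.

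The pairs with the lowest ratios had the higher value in VCaP. In the MHC they were at 31939577–31940235, with 4.63 in LNCaP and 5.96 in VCaP, at 32145615–32145871, with 6.02 and 7.63, and at 31697306–31697828, with 4.59 and 5.70. In the rest they were the sites at 34725083 and 34495063, whose VCaP peaks are named above, and 37786554–37787468, with 6.06 in LNCaP and 7.86 in VCaP. The summits lay 343 bp apart at 31939577, 363 bp at 32145615, 238 bp at 34725083 and 252 bp at 37786554. At 31697306 and 34495063 they were 6 and 50 bp apart. The LNCaP peak at 31939577 also overlapped a second VCaP peak, with a fold enrichment of 5.11 and a summit 17 bp away. The lowest log2 ratio of the region was -0.47. Both extremes were named for their ratio and are descriptions.

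The median distance between the summits of a pair was 53 bp, with quartiles of 18.5 and 155 bp, against 73 bp over all pairs. In the MHC 33 of 45 pairs, 73.3%, had summits within 200 bp, and in the rest 63 of 70, 90.0%, against 82.6% over all pairs. Across the 115 pairs, Spearman's rho between the lines was 0.46 for fold enrichment and 0.53 for pileup, against 0.35 and 0.46 over all pairs. The points are sites within 1 pair of libraries, not replicates.

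Sites of 1 line alone were of modest height, as over the lists as a whole. The highest LNCaP peaks without overlap were, in the MHC, those at 30294609, named above, 30434063–30434406 (fold enrichment 9.47) and 30875375–30876001 (9.07), and in the rest those at 37467301–37467875 (10.1), 42981428–42982177 (9.54) and 36410610–36411069 (8.76). The peak at 37467301, in the sparse middle, was 146 kb from the nearest VCaP summit, and the other 5 were 6.27 to 29.5 kb away. The highest VCaP peaks without overlap were, in the MHC, those at 32383310, named above, 29815899–29816232 (7.52) and 30509347–30509605 (6.27), and in the rest those at 34624878–34625193 (6.80), 44205520–44205925 (6.64) and 44243767–44244030 (6.52). A fold enrichment of at least 10 was reached by 2 of the 158 LNCaP peaks without overlap, 1.27%, against 2.58% over the whole list. None of the 30 VCaP peaks without overlap reached it, against 1.07% over the whole list. Counts this small show nothing particular to the region.

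No strong peak sits at the limits that define the region or its parts. At the lower end the last summit outside was at 28984498 in LNCaP (fold enrichment 5.79) and 28984454 in VCaP (4.64), and the first inside at 29600887 (6.25) and 29600894 (4.34). At the border of the MHC the last summit was at 33396182 in LNCaP (3.94) and 33385861 in VCaP (6.07), and the first beyond it at 33422405 (5.28) and 33422392 (5.90). At the upper end the last inside was at 44443762 in LNCaP (5.50) and 44443585 in VCaP (5.59), and the first outside at 44537873 (5.67) and 45345476 (4.06).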

How the data were processed

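Peak lists of 1 Rb ChIP-seq library per line were used as deposited. Per the file headers, the authors called them with MACS 2.1.0.20140616, with no control file, a q-value limit of 0.05 and 1 tag kept per position, from 3671482 tags in LNCaP and 8691938 in VCaP. The submitters' processing notes name hg19, MACS2 and HOMER. The aligner is not given in the sources used here. The deposited pileup is a signal in tags, fold enrichment a ratio to the library's own local background, and significance is −log10 of p or q. The deposited length is in bp.

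Peaks on chromosomes 1 to 22 and X were kept, and members chosen by summit position. Pairs share at least 1 bp, each VCaP peak taking the LNCaP partner of highest fold enrichment. Window tags are (pileup + 1)/fold − 1, scaled from the fragment length (241 bp in LNCaP, 225 bp in VCaP) to 10 kb. For all 263 LNCaP and 143 VCaP members above the genome mean they came out whole within 0.05 tags. Tiles start at position 0 of each chromosome, and tiles reaching past the last peak of a chromosome or touching the region were left out, while 4 with no peak in either line were kept for the counts. Computation used Python 3.11.15, numpy, pandas 2.3.3 and scipy 1.17.1, and overlap was tested on simulated data. Members, lists and named-peak rules (5 highest per line in the MHC, 10 in the rest, the same numbers of best shared pairs, 3 highest without overlap, 3 pairs at either extreme of the ratio) were chosen with earlier results of these data known. Gene starts, gene lists and motifs were planned and not run, for want of an hg19 annotation and genome. The alternatives are given in the closing section.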

Additional observations from a re-analysis of the deposited data

How the results depend on the processing

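No paired analysis was possible because each line has 1 library. Of 53 values recomputed for 17 results under other settings, 34 stayed within the interval of the reported value, 18 left it and 1 crossed equality. For lists of equal length the LNCaP list was cut to its peaks of highest fold enrichment, as many as in VCaP. The ratio of LNCaP to VCaP peaks in the region was then 0.828 in place of 1.86, by construction of fewer LNCaP peaks. That setting also gave 65.0% of LNCaP and 55.9% of VCaP peaks overlapped. Median fold enrichment in LNCaP was then 7.77, with 17.5% of LNCaP peaks at 10 or more. The ratio of medians was 1.33 in place of 1.04. The median log2 ratio of pairs was then 0.44, with 91.4% of pairs higher in LNCaP. Since the LNCaP peaks were kept by fold enrichment, these higher fold values follow from the cut and are no check of the results. With −log10 q of at least 5 the median fold enrichment was 6.78 in LNCaP and 6.26 in VCaP, and the region held 1.93% of the VCaP list in place of 1.54%. Reciprocal overlap of 50% lowered the overlapped shares to 27.04% in LNCaP and 50.3% in VCaP, and summits within 200 bp to 35.2% and 66.2%. Overlapped shares of the whole lists were not computed under any of these settings, so whether the region stayed above the lists was not tested. Pileup with each library scaled to 1000000 tags gave a ratio of medians of 2.21, a median log2 ratio of pairs of 1.61 and 100% of pairs higher in LNCaP. Without the tags over the summit the log2 window ratio of the region was 0.98 in place of 1.23. The ratio of MHC to rest in peaks per Mb stayed between 1.63 and 2.03 in LNCaP and between 1.72 and 1.82 in VCaP. Both lists lack a control library, so that background signal and Rb binding cannot be told apart at a single peak, and the lower depth of LNCaP limits its weakest peaks to few tags. Other settings for the distance to gene starts, protein-coding genes alone and motif windows were not run, since no annotation or genome on hg19 was used.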

Other observations

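Broad peaks were few in the 6p21 region, as over the whole lists. In LNCaP 4 of 270 peaks were at least 1 kb long, 1.48%, against 2.34% of the whole list, and 2 of the 4 were in the MHC. In VCaP none of the 145 peaks was, against 0.224% of the list. Peaks in thinly covered surroundings were also few, with a share below that of the list in LNCaP and near it in VCaP. The genome mean, rather than the local window, was the background of 7 LNCaP peaks, 2.59% against 5.96% of the list. It was the background of 2 VCaP peaks, 1.38% against 1.71%. In the MHC this held for 1 peak in each line.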
